A study of Mus musculus with 6 samples.

Results

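Cd5, Cd6 and Thy1 encode surface proteins of conventional T cells, and this account follows their RNA in 3 subsets of mouse small intestinal intraepithelial lymphocytes (IEL), the T cells that sit within the gut lining. All probe sets whose platform symbol was Cd5, Cd6 or Thy1 were taken, which gave 4 probe sets for 3 genes out of 8251 genes with a probe set of their own on the array. A probe set is a group of short array probes that together measure 1 transcript. Cd5 and Thy1 had 1 probe set each and Cd6 had 2, and all 4 were bright enough to be tested, Cd5 only because of its TCRab CD8ab arrays. One Cd6 probe set has a name ending in s_at, which marks probes shared by more than 1 transcript, and is called the s_at probe set below. The genes were selected on the signal differences of these same arrays between the CD8aa subsets and TCRab CD8ab, so those differences are given as a description without a test.

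TCRab CD8aa and TCRgd CD8aa IEL were the subsets set against TCRab CD8ab IEL, the names giving the type of antigen receptor and the form of CD8. The titles of the third kind of sample read TCRgb where their source fields read TCRgd, and the source fields were followed. The cells were sorted from pools of 20 untreated C57BL/6 mice younger than 8 weeks, whose sex and gate were not given in the sources used here, and every array stands for 1 pool. Each of the 2 experiments, done on separate occasions, gave 1 array per subset, so n = 2 throughout and the number of arrays limits the precision. No genetic change or treatment separated the groups. In fits with no term for the experiment, p-values measure the spread between pools of a subset. With that term, called the block below, they measure how evenly differences repeated across subsets and experiments. In neither case do they measure the spread between mice.

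CD5 and CD6 are related receptors with scavenger receptor cysteine-rich domains, and both act at the contact between a T cell and the cell that presents antigen. CD5 dampens signals of the T cell receptor, and its amount on thymocytes and T cells follows the strength of those signals. CD6 binds the adhesion molecule ALCAM and assembles signalling proteins on its tail. THY1, or CD90, is a small glycoprotein tethered to the outer membrane by a lipid (GPI) anchor, abundant on mouse T cells and thymocytes and also found on fibroblasts and neurons. Conventional CD8 T cells carry the CD8ab dimer, while CD8aa IEL belong to the unconventional T cells of the gut.

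Of the 3 genes, Cd5 alone had an entry in the RefSeq promoter table used here. Its 250 bases before the transcription start lie on mouse chromosome 19 at chr19:10738975-10739224 of GRCm38.p6, on the minus strand. It is shown as the member promoter that the table holds, and it is given 5′ to 3′ along the gene, and the capitals mark the letters AGGAAG, the core recognised by Ets family factors.

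Cd5 promoter: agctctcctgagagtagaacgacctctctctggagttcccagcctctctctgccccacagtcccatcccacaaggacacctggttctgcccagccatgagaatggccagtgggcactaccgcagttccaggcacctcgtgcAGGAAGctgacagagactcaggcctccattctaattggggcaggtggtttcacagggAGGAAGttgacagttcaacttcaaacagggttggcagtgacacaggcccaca

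AGGAAG, searched on both strands, occurred 2 times in this window, at 104 to 109 and at 47 to 52 bases before the start. Over 32817 mouse promoter windows of the same length, 29.5% held it at least 1 time and 6.25% at least 2 times. The E-box letters CANNTG were found 2 times, as in 31.8% of the windows with 2 or more, and the CCAAT box 1 time, as in 33.8% with 1 or more. TGTGGT (the Runx core), TATAAA (the TATA box) and GGGCGG (the Sp1 GC box) were not among the letters of this window, and 14%, 12.4% and 32.7% of all windows held them. These motifs did not overlap each other. They were picked with the sequence in view, and a match of letters is a description, not a binding site.

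The values are MAS5 signals, a linear measure of probe set brightness whose trimmed mean was nearly equal on all 6 arrays as deposited. Differences are on the log2 scale after signals below 15.3, the 20th percentile of all values, had been raised to it (called the floor below). Where an array lay at the floor, the difference is a lower bound. The transcript of the CD8 beta chain, Cd8b1, had signals of 29.5 and 182.1 in TCRab CD8aa (experiments 1 and 2), 28.1 and 763.1 in TCRgd CD8aa, and 17646.6 and 27591.7 in TCRab CD8ab, so the arrays followed their CD8 labels. Cd3g, a chain of the T cell receptor complex, was at 7597.3 or more on every array. The receptor type itself could not be checked here through constant region genes, as no probe set carried 1 such symbol. Control probe sets at the 3′ and 5′ ends of the actin transcript, whose ratio grows as RNA is shortened, gave ratios of 1.41 to 1.76 for experiment 1 but 40.4 to 52.2 for experiment 2. Markers of enterocytes, 9 of 12 of which had a probe set, summed to a signal of 25450 on the TCRgd CD8aa array of experiment 2 and to 926.1 to 2085 on the other 5 arrays. In sorted pools, fewer cells that carry an RNA and less of it per cell cannot be told apart.

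Cd5 RNA was bright in TCRab CD8ab IEL and far lower in both CD8aa subsets, at the floor in experiment 1 but not in experiment 2. Its signal was 12.7 and 47.2 in TCRab CD8aa, 3.9 and 100.2 in TCRgd CD8aa, and 2747.5 and 7775 in TCRab CD8ab, in experiments 1 and 2. The highest of the 4 CD8aa arrays lay 27.4-fold below the lower TCRab CD8ab array. The log2 level averaged 4.75 ± 1.15 in TCRab CD8aa, 5.29 ± 1.92 in TCRgd CD8aa and 12.17 ± 1.06 in TCRab CD8ab (SD, n = 2). In experiment 1 both CD8aa arrays lay at the floor, so each was at least 180-fold below TCRab CD8ab. In experiment 2 TCRab CD8aa was 165-fold and TCRgd CD8aa 77.6-fold below it.

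Cd6 RNA had the same layout on both of its probe sets. On the s_at probe set the signal was 77.6 and 23.7 in TCRab CD8aa, 254 and 12.4 in TCRgd CD8aa, and 8982.2 and 3192.7 in TCRab CD8ab. On the other probe set it was 73.8 and 36.6 in TCRab CD8aa, 81.4 and 24.3 in TCRgd CD8aa, and 4134.1 and 2677.5 in TCRab CD8ab. The lower TCRab CD8ab array exceeded every CD8aa array by 12.6-fold or more on the first and by 32.9-fold or more on the second. The CD8aa subsets overlapped each other on both probe sets.

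The 2 Cd6 probe sets gave differences of several log2 units each. For TCRab CD8aa minus TCRab CD8ab it was log2 −6.96 ± 0.60 on the s_at probe set and −6.0 ± 0.44 on the other (SE with the experiment as a block, n = 2). For TCRgd CD8aa minus TCRab CD8ab it was −6.42 ± 0.60, with 1 array at the floor, and −6.23 ± 0.44. The part of the transcript that each probe set covers was not given in the sources used here.

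Thy1 RNA was also highest in TCRab CD8ab, but it stayed well above the floor in the CD8aa subsets. Its signal was 208.2 and 153.7 in TCRab CD8aa, 642.5 and 274.5 in TCRgd CD8aa, and 5672.6 and 5189.9 in TCRab CD8ab. In both experiments TCRab CD8aa was lowest on this probe set and TCRgd CD8aa between, and how many other probe sets have this order was not counted. The TCRab CD8ab arrays differed by log2 −0.13 between experiments, the closest pair of any subset and probe set here. TCRab CD8aa was 30.3-fold and TCRgd CD8aa 12.9-fold below TCRab CD8ab, or log2 −4.92 ± 0.36 and −3.69 ± 0.36 (SE with the block, n = 2). Without the block these standard errors were 0.587, because that fit keeps the difference between experiments in its spread.

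**Figure D1:**
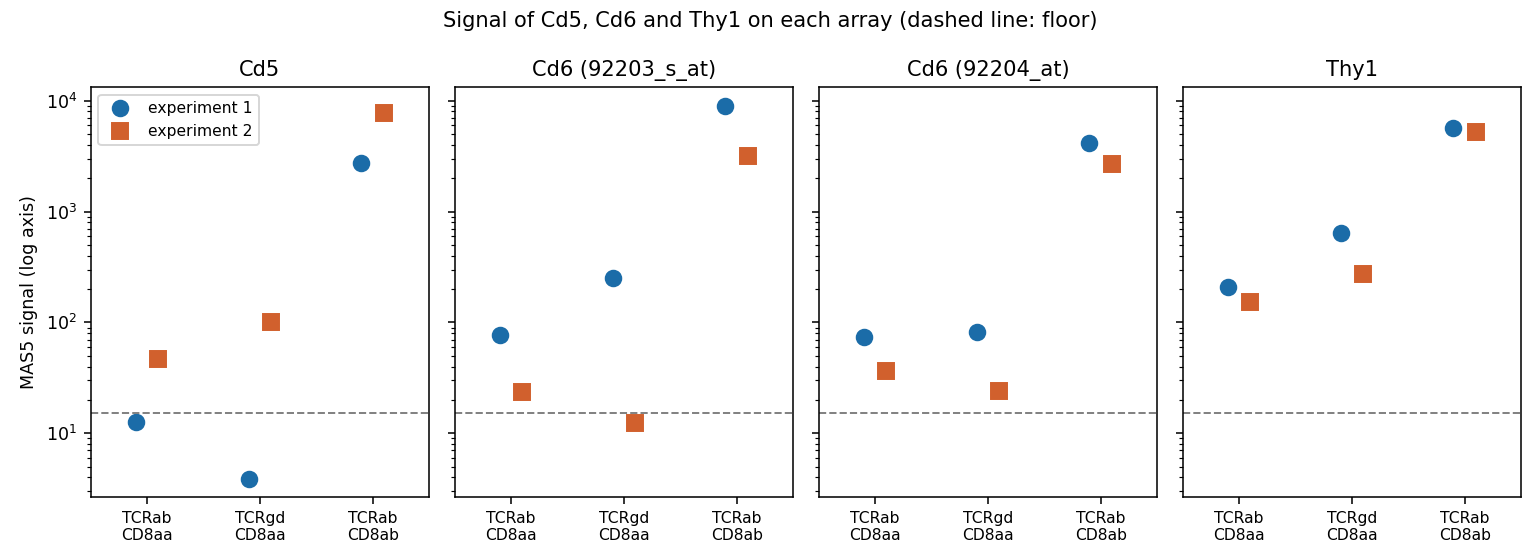
MAS5 signal (log axis) of the 4 probe sets on each of the 6 arrays, circles for experiment 1 and squares for experiment 2, with the floor of 15.3 as a dashed line. The TCRab CD8ab arrays lie between 2677.5 and 8982.2 and every CD8aa array at 642.5 or below.

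Expressed against the TCRab CD8ab array of the same experiment, Cd5 in experiment 2 reached 0.607% of that level in TCRab CD8aa and 1.29% in TCRgd CD8aa, and in experiment 1 both lay below the floor. Thy1 had 3.67% and 2.96% in TCRab CD8aa, and 11.3% and 5.29% in TCRgd CD8aa, in experiments 1 and 2. Cd6 in TCRgd CD8aa had 2.83% in experiment 1 on the s_at probe set, below the floor in experiment 2, and 1.97% and 0.908% on the other. Cd8b1, which a pure CD8aa sort should lack, stood at 0.167% and 0.66% in TCRab CD8aa and at 0.159% and 2.77% in TCRgd CD8aa. On the TCRgd CD8aa array of experiment 2, the share of Cd8b1 was thus above those of Cd5 and of both Cd6 probe sets and below that of Thy1. How far TCRab CD8ab cells in the sort set these levels was not tested.

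The comparison of the CD8aa subsets with each other did not choose the genes, and it asked whether the receptor type goes with a different level. No probe set of Cd5, Cd6 or Thy1 passed in limma, with or without the block (Benjamini-Hochberg adjusted p = 1 for each in both fits). In this comparison the block called 0.0241% of 8299 probe sets, 0.012% as higher and 0.012% as lower, and the fit without it called 0, with 34 at unadjusted p under 0.05. Thy1 in TCRgd CD8aa minus TCRab CD8aa had log2 1.23 ± 0.36 (SE with the block, n = 2), or 2.35-fold, with a higher value in TCRgd CD8aa in both experiments (1.63 and 0.84). The 95% interval ran from 0.42 to 2.04 with the block and from −0.18 to 2.64 without it, before any adjustment for the number of probe sets.

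Cd5 and Cd6 had smaller and less even differences between the CD8aa subsets. Cd5 in TCRgd CD8aa minus TCRab CD8aa had 0.54 ± 0.47, with both arrays of experiment 1 at the floor and 1.09 in experiment 2. With those arrays at the floor, and testing reached only through TCRab CD8ab, this comparison can tell little about Cd5. Cd6 had 1.71 in experiment 1 and −0.63 in experiment 2 on the s_at probe set, and 0.14 and −0.59 on the other. The 95% intervals with the block were −0.52 to 1.61 for Cd5, −0.82 to 1.90 for the s_at probe set of Cd6 and −1.22 to 0.77 for the other. The arrays therefore fix the order of the CD8aa subsets for neither Cd5 nor Cd6.

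**Figure D2:**
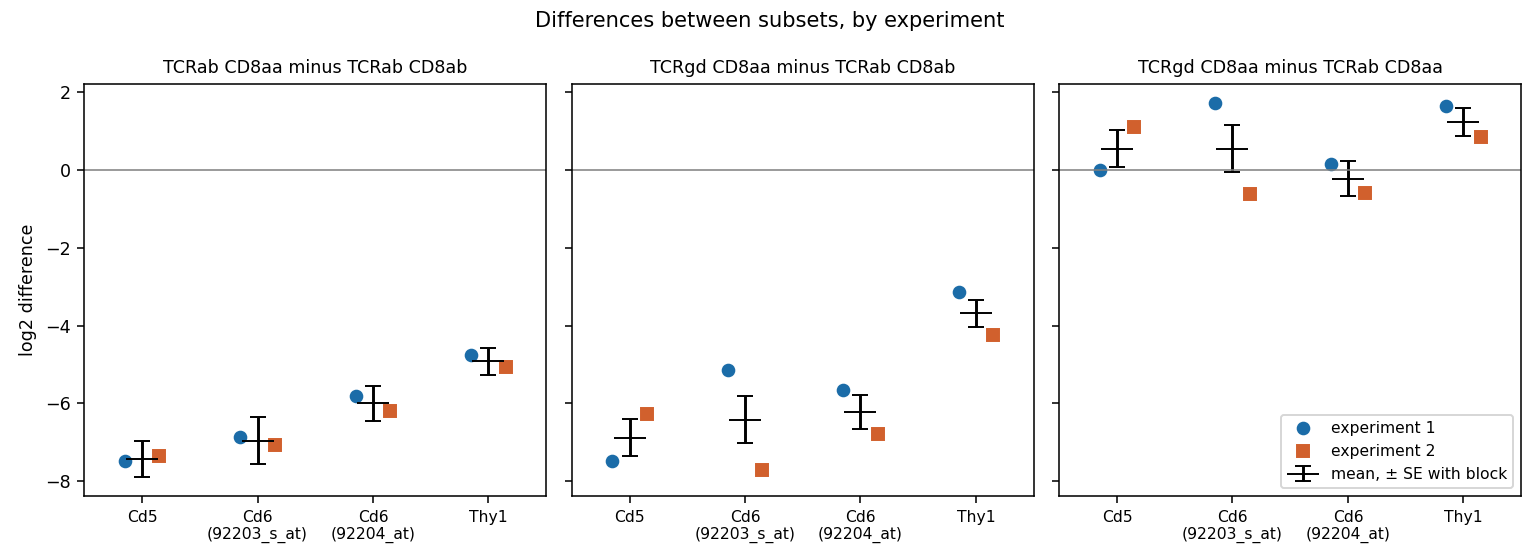
Log2 differences between subsets for the 4 probe sets, with each experiment as a point and the mean with its standard error (fit with the block) as a bar. Against TCRab CD8ab all points lie at −3.14 or lower, and between the CD8aa subsets Thy1 has the mean furthest above 0.

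Cd5 and Cd6 moved in opposite directions between the 2 experiments, in every subset. Experiment 2 minus experiment 1 was log2 1.63 for Cd5 in TCRab CD8aa, 2.71 in TCRgd CD8aa and 1.5 in TCRab CD8ab, with the CD8aa arrays of experiment 1 at the floor. For Cd6 it was −1.71, −4.05 and −1.49 on the s_at probe set, where TCRgd CD8aa of experiment 2 lay at the floor, and −1.01, −1.74 and −0.63 on the other. Thy1 had −0.44, −1.23 and −0.13. Cd5 was thus brighter and Cd6 dimmer in experiment 2 on all 3 arrays, and Thy1 had a difference near 0 in TCRab CD8ab.

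Tested across the 3 subsets with limma, a comparison chosen after the data were seen, Cd5 was higher in experiment 2 by 1.95 ± 0.39 (SE, adjusted p = 0.00474). Cd6 was lower, with −2.42 ± 0.49 on the s_at probe set (adjusted p = 0.00534) and −1.13 ± 0.36 on the other (adjusted p = 0.0382). Thy1 did not pass, with −0.60 ± 0.29 (limma adjusted p = 0.145). In this comparison 34.1% of 8299 probe sets passed, 13.7% as higher and 20.4% as lower, and of 6109 genes 35.6% did, 14.4% as higher and 21.1% as lower, so a difference between experiments was common. The call on the other Cd6 probe set was lost on leaving out any 1 of 5 arrays (adjusted p 0.0503 to 0.261, limma), and also under quantile normalization (0.0508) and with no intensity trend (0.0571), and with no brightness filter neither Cd5 nor Cd6 passed (0.0886 to 0.155). Each experiment holds 1 array per subset, so the 3 arrays are not replicates of 1 condition, and pool, occasion and RNA quality (the actin ratios above) cannot be told apart.

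**Figure D3:**
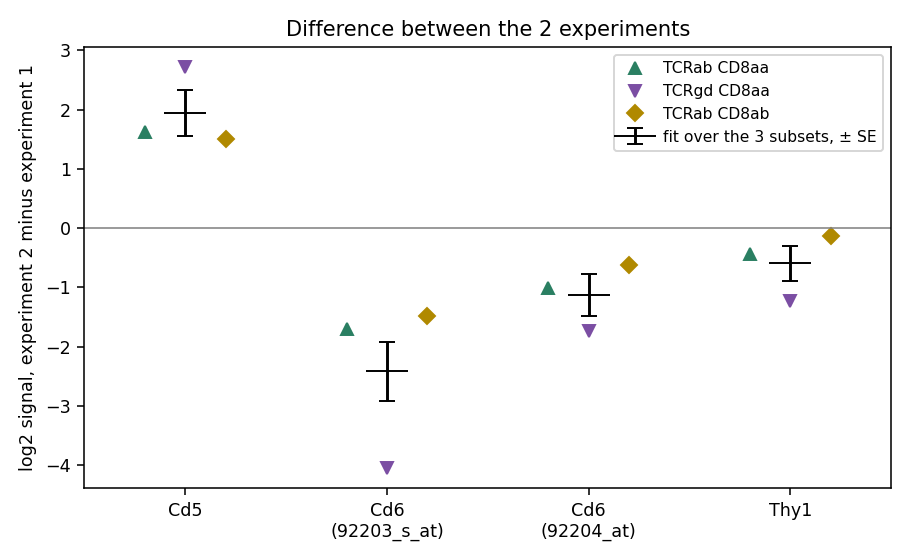
Log2 signal in experiment 2 minus experiment 1 for each probe set, with the 3 subsets as points and the fit over them with its standard error as a bar. Cd5 lies above 0 in all 3 subsets and both Cd6 probe sets below 0.

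The differences of TCRab CD8aa from TCRab CD8ab were closer between the experiments than those of TCRgd CD8aa. For Thy1 the gap was 27.3-fold in TCRab CD8aa of experiment 1 and 33.8-fold in that of experiment 2. In TCRgd CD8aa Thy1 was lower by 8.83-fold in experiment 1 and 18.9-fold in experiment 2. On the s_at probe set Cd6 was lower there by 35.4-fold and by at least 209-fold. Experiment 1, without the array with raised enterocyte markers, gave TCRgd CD8aa minus TCRab CD8ab values of −7.49 for Cd5 (a lower bound), −5.14 and −5.67 for Cd6, and −3.14 for Thy1.

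Markers of other cells were read beside these levels, since Cd5 is also found on some B cells and Thy1 on stroma. The 8 of 10 B cell and plasma cell markers with a probe set summed to signals of 2080 to 4724 in TCRab CD8aa, 4431 to 5995 in TCRgd CD8aa and 1839 to 2691 in TCRab CD8ab. Ighm and Jchain made up most of several of these sums. Cd79a, Ms4a1, Blk and Pax5, 4 of the 8, had their highest signals (206, 406.9, 138.5 and 192.8) on the TCRab CD8ab array of experiment 2, the array with the brightest Cd5. Cd79b, Ighm, Jchain and Cd22, the other 4, had theirs on CD8aa arrays (744.2, 3904.8, 4023.1 and 79.7). On that TCRab CD8ab array they were at 518.9, 261.8, 101.5 and 12.9, and the part of B cells in these levels was not tested. The 10 fibroblast markers summed to 935.6 to 1088, 1033 to 1132 and 962.2 to 1636 in the same order, with Sparc at the floor on all arrays. Of 8 markers of CD4 and circulating T cells 6 had a probe set, and they summed to 612.3 to 683, 602.9 to 756.6 and 739.5 to 4076. Most of the last value was Ccr7, the homing receptor of naive T cells, at log2 11.33 in TCRab CD8ab of experiment 1 and 5.63 in experiment 2. The part of such cells in the levels of Cd5, Cd6 and Thy1 was not tested.

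The genes around the members in known pathways were grouped in 9 lists and read in the same fits. Without the block limma called 0 genes in each of the 3 comparisons (187 and 168 probe sets at unadjusted p under 0.05 against TCRab CD8ab). All calls on list genes below are those with the block at adjusted p under 0.05, and genes of all kinds give the background. In TCRab CD8aa minus TCRab CD8ab 0.9% of 6109 genes passed, 0.557% as higher and 0.344% as lower, and in TCRgd CD8aa minus TCRab CD8ab 0.573%, 0.327% as higher and 0.246% as lower. Of 8299 probe sets 0.819% passed in the first comparison (0.518% higher and 0.301% lower) and 0.554% in the second (0.337% higher and 0.217% lower). Both comparisons use the same TCRab CD8ab arrays. The median difference over all genes was −0.06 and −0.05.

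Ligands of CD5 and CD6 and related scavenger receptors had 4 of 14 genes measured, and 0 passed in either comparison, with medians of −0.36 for TCRab CD8aa and 0.26 for TCRgd CD8aa. Alcam, the CD6 ligand, did not reach the brightness needed for testing. Cdcp1, another ligand of CD6, had a signal of 332.1 on the TCRgd CD8aa array of experiment 2 and 15.9 to 100.5 on the other arrays. The first of these is the array with raised enterocyte markers. For Cdcp1, TCRgd CD8aa minus TCRab CD8ab was −1.97 in experiment 1 and 4.38 in experiment 2. Cd72, a B cell protein reported to bind CD5, was at 689.7 to 2747.9 on all arrays, and TCRab CD8aa stood at −0.38 ± 0.33 and TCRgd CD8aa at 0.20 ± 0.33 relative to TCRab CD8ab (SE, n = 2). The groups overlapped for both genes.

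Signalling partners of CD5 and CD6, the kinases, phosphatases and adaptors at their tails, had 19 of 26 genes measured, and 0 passed. Their medians were 0.05 and 0.06, and their widest differences 0.81 and −0.85. Ptpn6, the phosphatase SHP-1 that acts downstream of CD5, had signals of 4498.4 and 1243.5 in TCRab CD8aa, 5045 and 719.3 in TCRgd CD8aa, and 2693 and 882.6 in TCRab CD8ab. Csnk2a1, a catalytic subunit of casein kinase 2, which binds the CD5 tail, had 942.3 and 907.2, 702.9 and 729.8, and 559.4 and 557.5 in the same order. Its differences of 0.73 ± 0.31 and 0.36 ± 0.31 did not pass (limma adjusted p = 0.473 and 0.79). Csnk2a2, the other catalytic subunit, went the other way without passing, with −0.67 ± 0.41 and −0.85 ± 0.41 (limma adjusted p = 0.632 and 0.655).

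Other attenuators of T cell receptor signals had 16 of 27 genes measured, with medians of −0.35 and −0.01. Pdcd1, the inhibitory receptor PD-1, fell in TCRab CD8aa, with a log2 difference of −3.92 ± 0.65 (limma adjusted p = 0.0309) and 1 array at the floor. In TCRgd CD8aa Pdcd1 had −3.36 ± 0.65 and did not pass (limma adjusted p = 0.0833), with a lower signal in both experiments. Every CD8aa array of Pdcd1 lay below the brightness filter of 56.4, so it was tested only through TCRab CD8ab, which limits these p-values. Ctla4, the inhibitory counterpart of CD28, fell in TCRgd CD8aa, with −1.66 ± 0.28 (limma adjusted p = 0.0428), and had −1.39 ± 0.28 in TCRab CD8aa (limma adjusted p = 0.0751). Its signals were 3967.1 and 4951.3 in TCRab CD8aa, 3007.5 and 4485.1 in TCRgd CD8aa, and 11151.8 and 12116.1 in TCRab CD8ab. The CD8aa arrays lay below both TCRab CD8ab arrays. Dusp2, a phosphatase of MAP kinases, had −1.65 ± 0.33 and −1.68 ± 0.33 and did not pass (limma adjusted p = 0.0661 and 0.0833).

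Ly6 family and other GPI-anchored proteins, the membrane class of THY1, had 12 of 31 genes measured, and 0 passed, with medians of −0.45 and −0.08. Their differences from TCRab CD8ab ran from −2.21 to 0.22 in TCRab CD8aa and from −1.86 to 1.31 in TCRgd CD8aa, so each lay above the −4.92 and −3.69 of Thy1. The −2.21 was that of Cd55, with both TCRab CD8aa arrays at the floor against 104 and 48.2 in TCRab CD8ab. The −1.86 was that of Sema7a, with 1 TCRgd CD8aa array at the floor against 127.1 and 119. Both are lower bounds, and the floor kept genes this dim from a drop as large as that of Thy1. The 1.31 was that of Cd24a, with −1.0 in experiment 1 and 3.63 in experiment 2, where the TCRgd CD8aa array had raised enterocyte markers. Cd52, a small GPI-anchored protein of lymphocytes, had −1.03 ± 0.37 and −1.26 ± 0.37 (limma adjusted p = 0.418 and 0.324). Cd48, the GPI-anchored ligand of CD2 and CD244, had signals of 2440.2 to 4913.4 on all arrays. Binding partners of THY1 had 4 of 10 genes measured and 0 passed. Itgav, the integrin alpha V chain, was higher in both CD8aa subsets in both experiments, with 1.28 ± 0.31 and 1.16 ± 0.31, without passing (limma adjusted p = 0.149 and 0.253).

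Other surface molecules of conventional T cells had 21 of 33 genes measured, with medians of −0.45 and −0.47. Of these, 3 fell and 0 rose in each comparison, Cd2, Cd28 and Il7r in TCRab CD8aa and Cd2, Cd28 and Ctla4 in TCRgd CD8aa, Ctla4 being in the list of attenuators too. Cd28, the costimulatory receptor, had signals of 28.5 and 65.4 in TCRab CD8aa, 40 and 86.5 in TCRgd CD8aa, and 2710.6 and 937.7 in TCRab CD8ab (limma adjusted p = 0.00845 and 0.0164). Cd2, an adhesion receptor, had 261.8 and 282.1, 16.6 and 101.1, and 3323.4 and 3171.3 in the same order (limma adjusted p = 0.0322 and 0.00221). Thy1 was lowest in TCRab CD8aa while Cd2 was lowest in TCRgd CD8aa. Il7r, the receptor of a survival cytokine, had 57.8 and 91.4, 112.1 and 1016.5, and 2863.8 and 1279.8 (limma adjusted p = 0.0322 and 0.375). In each comparison 12 of the 21 genes were lower in both experiments, as were 30.1% and 28.4% of all genes.

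The T cell receptor complex and coreceptor chains had 8 of 8 genes measured, and 6 of them did not pass in either comparison. Cd8b1, the sort marker, fell and Fcer1g, an adaptor that can pair with the receptor complex, rose in both comparisons, and the medians were 0.14 and 0.23. Cd247, the zeta chain, had signals of 365.6 and 134.8 in TCRab CD8aa, 1139.6 and 207.7 in TCRgd CD8aa, and 1345.4 and 551.8 in TCRab CD8ab. Fcer1g had 1029.9 and 594.2, 1364.8 and 520, and 12.8 and 37.6 in the same order, the reverse of the layout of Cd5. It lay below the brightness filter of 56.4 in TCRab CD8ab and was tested only through the CD8aa arrays.

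Transcription factors of T cell gene control had 21 of 26 genes measured, with medians of −0.05 and −0.36. Satb1, a chromatin organiser of thymocytes, and Klf2, which keeps T cells in circulation, fell in both comparisons, and 0 rose. Klf2 lay below the brightness filter of 56.4 on every CD8aa array, so only TCRab CD8ab brought it to testing. Satb1 had signals of 215.7 and 75 in TCRab CD8aa, 147.8 and 90.6 in TCRgd CD8aa, and 1521.5 and 358.2 in TCRab CD8ab (limma adjusted p = 0.0397 and 0.0399). Myb, a factor of lymphocyte progenitors, had −3.0 ± 0.66 and −2.78 ± 0.66 and did not pass (limma adjusted p = 0.106 and 0.186). Of its CD8aa arrays, only TCRgd CD8aa of experiment 2 (65.8) lay above the filter, so Myb also came to testing through TCRab CD8ab.

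Genes induced by T cell receptor signals, which CD5 restrains, had 14 of 17 members measured, with medians of −0.39 and −0.33. Irf4, a factor induced in proportion to receptor signals, fell in both comparisons, and Irf8, a factor of the same family, rose in both. Irf4 had signals of 124.8 and 662.8 in TCRab CD8aa, 182.7 and 1007 in TCRgd CD8aa, and 1761 and 4887.5 in TCRab CD8ab. Like Cd5, it was brighter in experiment 2 in each subset. Nr4a1, an immediate early factor of receptor signalling, had 3439.1 and 1745.5, 4071.5 and 1664.1, and 7070.7 and 3296.3, and its differences of −0.98 ± 0.28 and −0.89 ± 0.28 did not pass (limma adjusted p = 0.248 and 0.358).

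**Figure D4:**
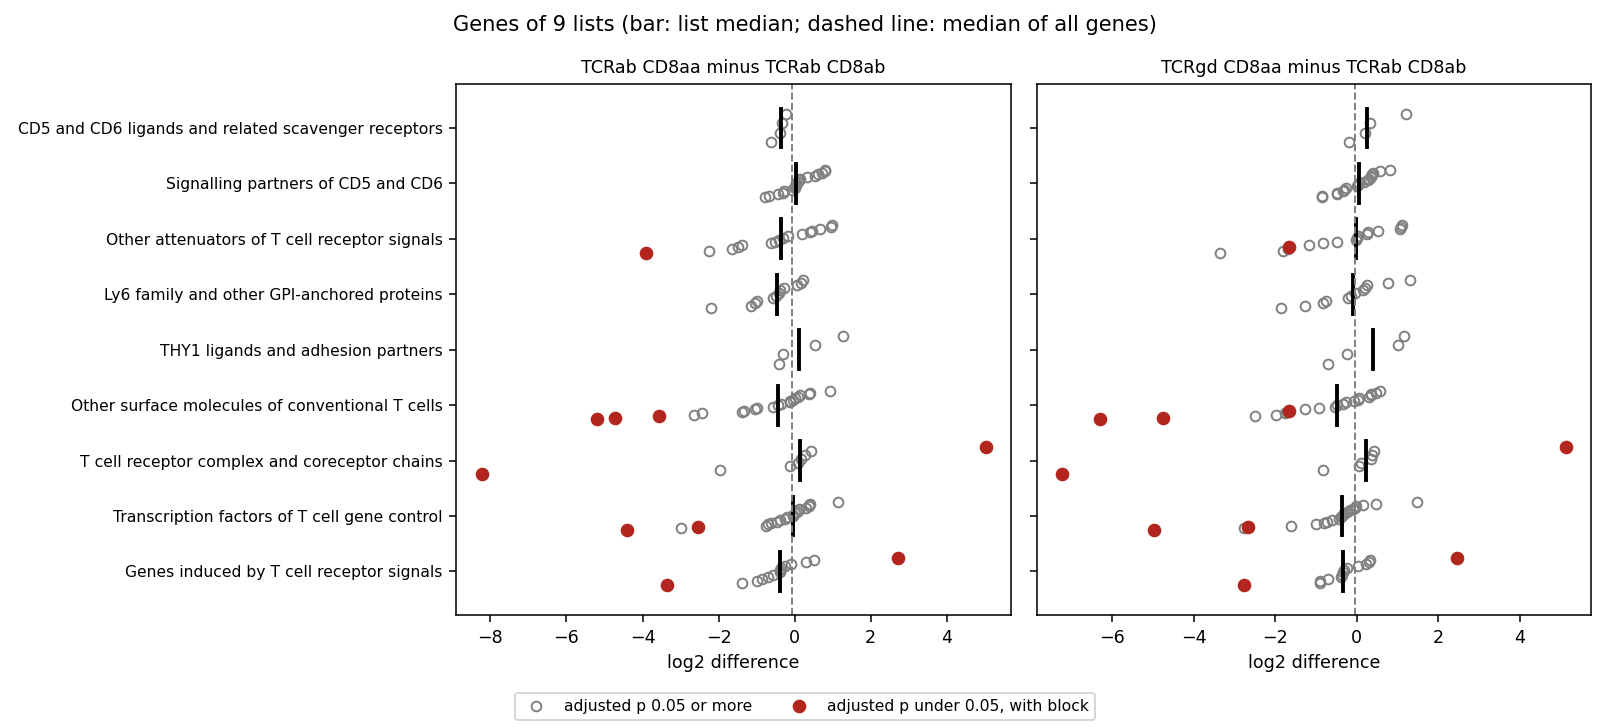
Log2 differences from TCRab CD8ab of the measured genes of 9 lists, for TCRab CD8aa (left) and TCRgd CD8aa (right), with list medians as bars and the median of all genes as a dashed line. Filled points passed with the block, and the list medians lie between −0.47 and 0.39.

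Between the CD8aa subsets no gene of the 9 lists passed with or without the block, where 0 of 6109 genes passed in either fit.

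Cd5 and Cd6 are neighbours on chromosome 19 with no other protein-coding gene between them in the RefSeq table (GRCm38.p6), while Thy1 lies on chromosome 9. Of the 20 nearest protein-coding genes, 5 on each side of each member and the members themselves left out, 9 were tested, a reading added after the data were seen. Relative to TCRab CD8ab, their median difference was −0.01 for TCRab CD8aa and 0.08 for TCRgd CD8aa. None of the 5 tested neighbours of Cd5 and Cd6 passed, with Vps37c next to Cd5 at 0.30 ± 0.37 and 0.29 ± 0.37. Mcam, an adhesion molecule of the immunoglobulin family and a neighbour of Thy1, rose in both comparisons, by 2.36 ± 0.36 and 2.30 ± 0.36 (limma adjusted p = 0.0208 and 0.028). Its signals were 1955.5 and 926.3 in TCRab CD8aa, 2039.3 and 809.7 in TCRgd CD8aa, and 282.2 and 242.9 in TCRab CD8ab.

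The genes whose profile over the 6 arrays came closest to the members were Klf2, Cd28, Pdcd1, Gramd3, Rgs10, Klf3, Iigp1, Lgals1, Penk and Ifit3. Likeness was the Euclidean distance between mean-centred log2 profiles, averaged over the 4 probe sets. It ran from 3.36 for Klf2 to 4.55 for Ifit3, within the range of 2.08 (the 2 Cd6 probe sets) to 5.76 (Cd5 and the s_at probe set) among the members themselves. Pearson's r over the 6 arrays with Thy1 was 0.866 (Gramd3) to 0.985 (Pdcd1), and with Cd5 0.684 (Ifit3) to 0.964 (Iigp1). The 6 points come from 3 subsets and 2 experiments, and the TCRab CD8ab arrays stand apart from the others, which sets much of these values.

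Lgals1, the sugar-binding galectin-1, had log2 signals of 7.97 and 7.56 in TCRab CD8aa, 8.45 and 7.62 in TCRgd CD8aa, and 10.92 and 10.39 in TCRab CD8ab. Rgs10, a regulator of G protein signals, had 7.06 and 6.59, 7.47 and 6.84, and 10.53 and 9.52. Both kept the order of Thy1, with TCRgd CD8aa above TCRab CD8aa in each experiment, as did Cd28, Pdcd1, Klf3 and Penk. Of all genes, 23.3% were higher in TCRgd CD8aa than in TCRab CD8aa in both experiments. Iigp1, an interferon-induced GTPase, lay at the floor on all 4 CD8aa arrays and at 6.57 and 7.27 in TCRab CD8ab. Penk, the precursor of enkephalin peptides, had 6.16 and 5.74, 6.28 and 6.99, and 10.41 and 8.22.

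**Figure D5:**
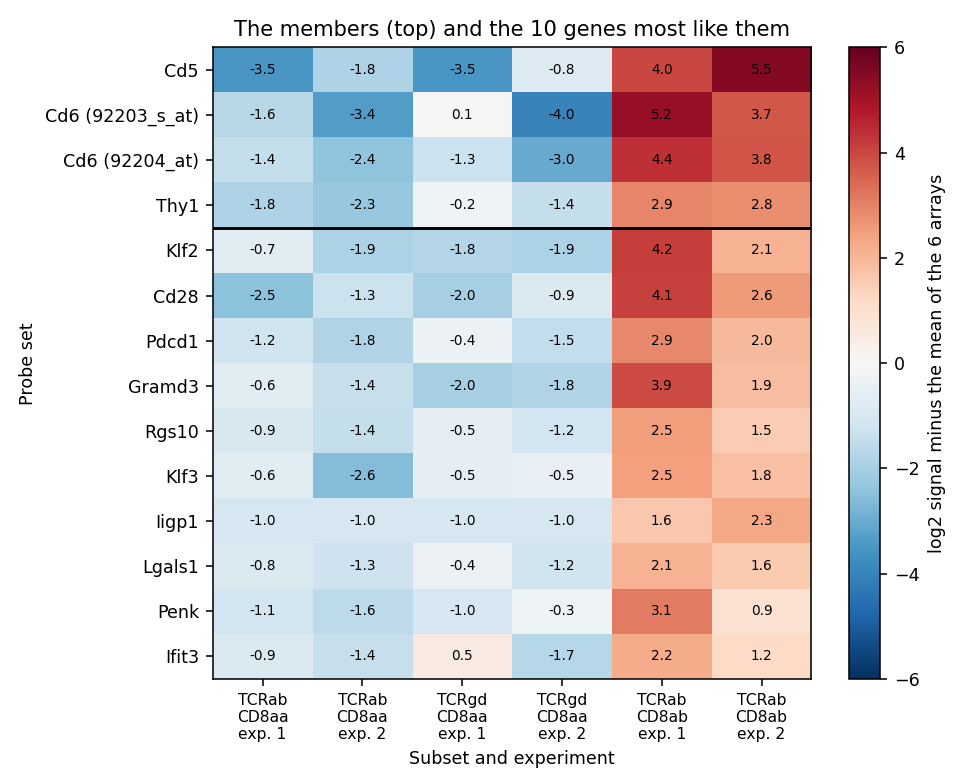
Log2 signal minus the mean of the 6 arrays for the 4 probe sets of Cd5, Cd6 and Thy1 (above the line) and the 10 genes with the closest profiles (below it), by subset and experiment. In every row the TCRab CD8ab arrays are above 0, and all CD8aa arrays are below 0 apart from TCRgd CD8aa of experiment 1 for the s_at probe set of Cd6 and for Ifit3.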

How the data were processed

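Messenger RNA of 3 IEL subsets was measured on 6 Affymetrix arrays, 2 per subset. The authors deposited MAS5 signal intensity on a linear scale, 1 value per probe set, per the submitters' processing notes (version not given). The trimmed mean, with 2% left out at each end, was equalised here by factors of 0.999915 to 1.00006. Median signals were 83.4 to 113. Of 12488 probe sets, 66 were controls, 10833 had 1 symbol, 396 several and 1193 no entry. Values were floored at the 20th percentile (15.3), and log2 was taken. Probe sets with at least 2 arrays above the 40th percentile (56.4) were tested, 8299 in all, among them all 4 member probe sets. Each list gene was read on its brightest probe set. No 2 arrays shared more than 45 equal values.

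All 6 arrays entered each model, run in limma 3.58.1 (R 4.3.3) with the intensity trend, with Benjamini-Hochberg adjustment over all tested probe sets, and checked on simulated data. The planned fit has no block. The simulated arrays took their spread and their difference between experiments from the fit with the block, which favours that fit. Only bright probe sets were lowered and no floor was applied, so the shares below do not carry over to Cd5 and Cd6 near the floor. On the simulated data the planned fit called 0% of the probe sets lowered by log2 1, 2, 3 or 4. The fit with the experiment as a block called 0%, 24%, 48% and 72% of them. A count of 0 calls without the block therefore cannot show that a difference is absent. The replicate number marks the experiment, and deviations of same-numbered arrays correlated with r of 0.603 to 0.713 across probe sets, so the fit with the experiment as a block is given beside it. The members and lists were chosen with earlier results of these data known. Named were all member probe sets, all list genes that passed, the 10 closest profiles and sort markers. List genes with the 3 smallest p with the block in either comparison with TCRab CD8ab were named only in part. The neighbouring genes, the promoter motifs, Alcam and Cd3g were chosen outside this rule after values were seen. Detection calls were not used.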

Additional observations from a re-analysis of the deposited data

How the results depend on the processing

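Without the block no setting called a probe set in any of the 3 comparisons. With the replicate block limma called 68 probe sets in TCRab CD8aa minus TCRab CD8ab, 46 in TCRgd CD8aa minus TCRab CD8ab and 2 in TCRgd CD8aa minus TCRab CD8aa, and the same 3 numbers came with no further scaling. In that order the counts with the block were 72, 50 and 1 after quantile normalization, 61, 45 and 2 with the floor at the 10th percentile, 67, 46 and 2 at the 30th, and 73, 46 and 2 with an added constant. They were 90, 55 and 2 with the filter at the 60th percentile, 6, 3 and 1 with no intensity trend, 169, 50 and 2 with only the compared subsets, and 0 in each with no filter. With the block and 1 array left out, the first and second comparison called 34 and 54 probe sets when this was TCRab CD8aa of experiment 1, and 22 and 52 when it was that of experiment 2. For the TCRgd CD8aa arrays they called 182 and 193 (experiment 1 left out) or 167 and 66 (experiment 2), and for the TCRab CD8ab arrays 173 and 97 or 64 and 30. The third comparison called 114 or 5 when a TCRgd CD8aa array of experiment 1 or 2 was left out, and 1 or 2 in the other cases. A group left with 1 array was assumed to vary like the others.

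All 4 probe sets stayed below TCRab CD8ab in both CD8aa subsets in every setting run. Leaving out 1 array without the block gave TCRgd CD8aa minus TCRab CD8ab of −8.24 to −5.53 for Cd5, −8.45 to −4.40 for the s_at probe set of Cd6, −7.10 to −5.35 for the other and −4.31 to −3.08 for Thy1. It turned the sign of TCRgd CD8aa minus TCRab CD8aa for Cd5 (−0.81 to 1.90 over the arrays left out, with −0.27 without TCRab CD8aa replicate 1), for the s_at probe set of Cd6 (−1.49 to 2.57, with −0.32 without TCRab CD8aa replicate 2) and for the other (−1.10 to 0.65, with 0.28 without TCRab CD8aa replicate 1). With the block these ran from −0.031 to 1.12, −0.69 to 1.77 and −0.69 to 0.24, and the cause was not tested. Only 2 arrays per subset and the floor limit what can be told of Cd5 and Cd6 within the CD8aa subsets.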
